A study of Mus musculus with 8 samples.

Results

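The complement system is a set of plasma proteins, membrane regulators and receptors, and 33 mouse genes that encode them were followed here across 8 liver RNA libraries. The members are the rows of the gene table whose symbol is one of 33 listed complement symbols, and all 33 were found among the table's 47719 rows. They were chosen by name, with earlier results of these data known. By the cell that is best known to make the product, 17 members are called hepatocyte-made, 7 macrophage-made and 9 of other or mixed source. These source classes are textbook assignments and were not measured in the libraries.

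The study tested encapsulated human hepatocyte organoids as a treatment for liver failure in mice after an extended hepatectomy, an operation that removes most of the liver. All libraries came from total RNA of whole liver of wild type C57BL/6 mice. There were 2 libraries from day 14 after hepatectomy, 4 libraries from day 2 after hepatectomy and 2 libraries from normal control mice that were 10 weeks old. The series' design names mice given eLO at both times and control mice given EMC at day 2, but no label ties a day 2 library to either treatment. The treatments were therefore not compared. Time, operation and treatment cannot be told apart in any comparison between an operated group and the normal controls, nor time and treatment between day 14 and day 2. The age labels of the operated mice state only how long after hepatectomy the liver was taken. The title of day 2 replicate 1 carries "d1", whereas its age label puts it at day 2, which was used. The title of day 2 replicate 3 carries the letters TVR, which are not explained. The labels do not say that the libraries came from separate mice, so the p-values measure only the spread between these libraries.

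Complement is activated along 3 routes. In the classical pathway C1q, with the proteases C1r and C1s, recognises antibody or damaged cells. In the lectin pathway collectins and ficolins with MASP proteases recognise sugars, and in the alternative pathway C3 activates itself with factor B, factor D and properdin. All routes cleave C3, and the terminal components C5 to C9 then assemble a pore in the target membrane, while soluble and membrane-bound inhibitors protect the host's own cells. Hepatocytes secrete most of the plasma components and several are acute phase proteins, whereas C1q and properdin come mainly from macrophages and other myeloid cells. In liver regeneration after hepatectomy the fragments C3a and C5a are known as signals to the remaining tissue.

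The values are FPKM, fragment counts scaled by transcript length and by library size, as deposited, so levels of different genes can be compared per length. Read counts and depth are unknown. The FPKM of all genes summed to 686332 to 1298000 per library, and 10796 to 11197 genes had at least 1 FPKM. On the log2(FPKM + 1) scale the controls correlated across genes at r = 0.988 and the day 14 libraries at r = 0.963. Day 2 replicates 1 and 2 correlated at r = 0.959 and replicates 3 and 4 at r = 0.968, whereas r across these pairs was at most 0.926. Day 14 replicate 1 stood out by its mitochondrial mt-Co1 RNA, which took 11.1% of all FPKM. All 9 hepatocyte markers examined were above 0 in every library, with albumin (Alb) at 14930 to 39857 FPKM, and pancreatic acinar markers summed to at most 1.04 FPKM.

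Promoter sequence was at hand for 24 of the 33 members, from the RefSeq promoter table on build GRCm38.p6. The sequences of 4 of them are shown because the results turn on these genes: C9 and C8a have the largest differences between day 14 and day 2, C3 is the central component, and C1qb stands for the C1q chains. Each is the 250 bases before the RefSeq transcription start, written 5′ to 3′ on the gene's own strand, with capitals for matches to the C/EBP motif TTGCNNAA or the STAT motif TTCNNNGAA on either strand.

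C9, chr15:6445096-6445345, plus strand: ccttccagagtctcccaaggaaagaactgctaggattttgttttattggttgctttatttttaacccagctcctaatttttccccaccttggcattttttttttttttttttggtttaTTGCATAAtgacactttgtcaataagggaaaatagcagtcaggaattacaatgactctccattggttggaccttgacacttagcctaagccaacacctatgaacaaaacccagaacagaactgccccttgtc

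C8a, chr4:104876399-104876648, minus strand: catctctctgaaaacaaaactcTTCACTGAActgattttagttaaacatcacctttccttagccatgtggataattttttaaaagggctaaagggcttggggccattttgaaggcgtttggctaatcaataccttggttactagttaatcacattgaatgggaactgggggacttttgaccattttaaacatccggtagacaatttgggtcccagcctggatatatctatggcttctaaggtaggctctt

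C3, chr17:57228137-57228386, minus strand: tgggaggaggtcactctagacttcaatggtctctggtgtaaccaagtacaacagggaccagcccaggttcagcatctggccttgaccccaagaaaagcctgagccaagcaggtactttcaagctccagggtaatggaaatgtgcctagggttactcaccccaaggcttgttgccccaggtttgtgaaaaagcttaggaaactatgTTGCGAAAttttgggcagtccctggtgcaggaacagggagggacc

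C1qb, chr4:136886201-136886450, minus strand: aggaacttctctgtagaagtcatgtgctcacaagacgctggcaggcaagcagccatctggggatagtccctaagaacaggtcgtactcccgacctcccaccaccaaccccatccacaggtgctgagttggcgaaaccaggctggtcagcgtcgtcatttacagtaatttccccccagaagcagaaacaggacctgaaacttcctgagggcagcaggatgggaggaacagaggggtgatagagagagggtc

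The C9 window held 1 C/EBP match at positions -132 to -125 from the start, and the C3 window held 1 at -45 to -38. C8a held a STAT match at -228 to -220, which reads as a match on both strands. C1qb held none of the motifs searched. In windows of 250 bases before to 50 bases after the start, C/EBP was found in 4 of the 24 members (C1ra, C1s1, C3 and C9) and in 10.75% of all 27025 promoters. The STAT motif was found in 5 members (C1ra, C8a, Colec11, Masp2 and Vtn) and in 8.47% of all promoters. The NF-kB motif GGNNTTTCC was found in 1 member (C3ar1) and in 5.72% of all promoters. The interferon response motif GAAANNGAA was found in 4 members (C5ar1, Cd59a, Colec11 and Vtn) and in 8.57% of all promoters. Such letter matches describe the sequence only and are not binding sites.

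The members covered a wide range of levels. Ordered by the mean of the 3 group means, vitronectin (Vtn) was highest at 2938 FPKM, followed by C3 at 1189, clusterin (Clu) at 1090 and factor B (Cfb) at 795 FPKM. C3ar1 and C5ar1, the receptors for C3a and C5a, were lowest at 0.363 and 0.643 FPKM. Between 9 and 18 members reached 100 FPKM in a library. The 33 members summed to 12563 and 14279.7 FPKM at day 14, against 5789, 7837, 11142 and 8353 FPKM at day 2 and 8807 and 9965 FPKM in the normal controls. As a share of all FPKM in the library they made up 0.968% and 1.36% at day 14, 0.759%, 0.691%, 1.36% and 1.22% at day 2, and 1.23% and 1.36% in the normal controls, so the order of the groups by FPKM did not hold by share. Vtn alone made up 36.3% and 38.2% of that sum at day 14, 25.5%, 27.8%, 20.2% and 29.5% at day 2, and 18.4% and 18.1% in the normal controls. The heat map of all members by library shows the groups of genes that moved in each direction.

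**Figure D1:**
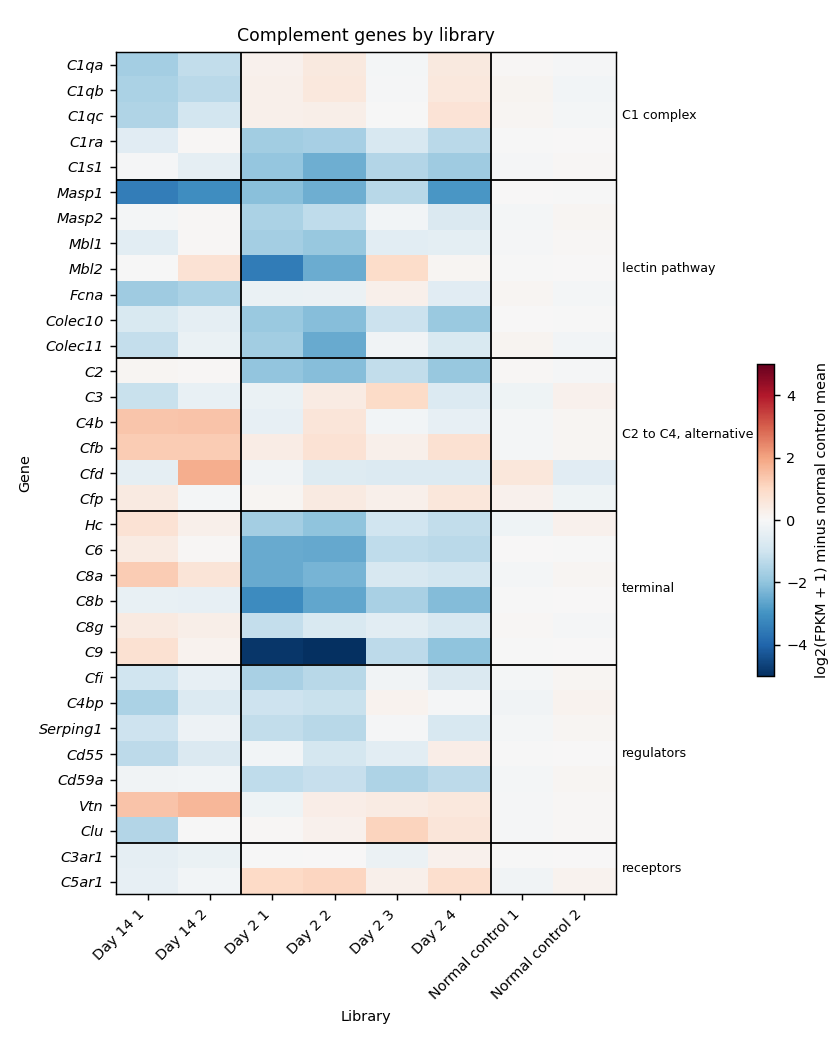
Heat map of all 33 complement genes (rows, grouped by role) in the 8 libraries (columns), coloured by log2(FPKM + 1) minus the mean of the 2 normal controls. The C1q chains and Fcna are blue at day 14, while most lectin pathway and terminal components are blue at day 2, most deeply C9 in day 2 replicates 1 and 2.

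Differences were tested with limma on log2(FPKM + 1) in the 12340 genes that reached 1 FPKM in 2 or more libraries. A change was called where its p, adjusted by the Benjamini-Hochberg method over all of these genes, was under 0.05. Fold changes on this scale understate those of genes with low FPKM. Of the 33 members 32 were tested, since C3ar1 stayed below 1 FPKM in every library. C5ar1 passed the filter only through its day 2 libraries, and Cfd only through 1 day 14 and 1 control library. The 3 comparisons share libraries and are not independent of each other.

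Against the normal controls, day 14 livers had lower RNA for 5 of 32 members and higher RNA for 2, where 4.58% of all genes tested were called lower and 5.21% higher. The lower ones were C1qa, C1qb, C1qc, Fcna and Masp1 and the higher ones Vtn and Cfb. The median log2 change over the 32 members was -0.26, beside -0.00 for all genes tested. In 15 members both day 14 libraries were below both controls and in 8 both were above, beside 35.7% and 35.3% of all genes tested. Without day 14 replicate 1, and without either control, no member was called by limma, with 5 members lower and 3 or 4 higher at an unadjusted p under 0.05. In the whole table at most 1 gene was then called. Of the day 2 libraries, leaving out replicate 1 left 3 members lower and 1 higher, and leaving out replicate 4 left 4 lower and 1 higher.

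Against the normal controls, day 2 livers had lower RNA for 9 of 32 members, where 11.5% of all genes tested were called lower. None of the 32 was called higher by limma, where 9.72% of all genes tested were, and 1, C5ar1, was higher at an unadjusted p under 0.05. The 9 were C1ra, C1s1, C2, C6, C8b, Cd59a, Colec10, Hc and Masp1. The median log2 change over the 32 members was -0.89, beside 0.05 for all genes tested. All 4 day 2 libraries were below both controls in 16 members, beside 25.4% of all genes tested, and above both in 3, beside 26.1%. Leaving out either control ended all 9 calls, with 11 members lower at an unadjusted p under 0.05 without control 1 and 9 without control 2, and only 61 or 57 genes were then called lower in the whole table. Without day 2 replicate 3, 16 members were called lower and C5ar1 higher. C5ar1 passed the filter only through its day 2 libraries, which favoured its rise.

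Day 14 livers had higher RNA than day 2 livers for 13 of 32 members and lower RNA for 5, where 9.09% of all genes tested were called higher and 7.03% lower. The higher ones were C1ra, C1s1, C2, C4b, C6, C8a, C8b, C8g, C9, Cd59a, Colec10, Hc and Vtn, and the lower ones C1qa, C1qb, C1qc, Fcna and C5ar1. The median log2 change over the 32 members was 0.91, beside -0.03 for all genes tested. Both day 14 libraries were above all 4 day 2 libraries in 15 members and below in 7, beside 21.2% and 20.4% of all genes tested. Without day 14 replicate 1 none of the 18 was called, with 14 higher and 5 lower at an unadjusted p under 0.05 and only 15 genes called higher and 2 lower in the whole table. The members called higher numbered 5 without day 14 replicate 2, 7 without either control, 8 in a fit of the 6 operated libraries alone, and 9 without day 2 replicate 1. The plot of changes gives each member's difference with its standard error.

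**Figure D2:**
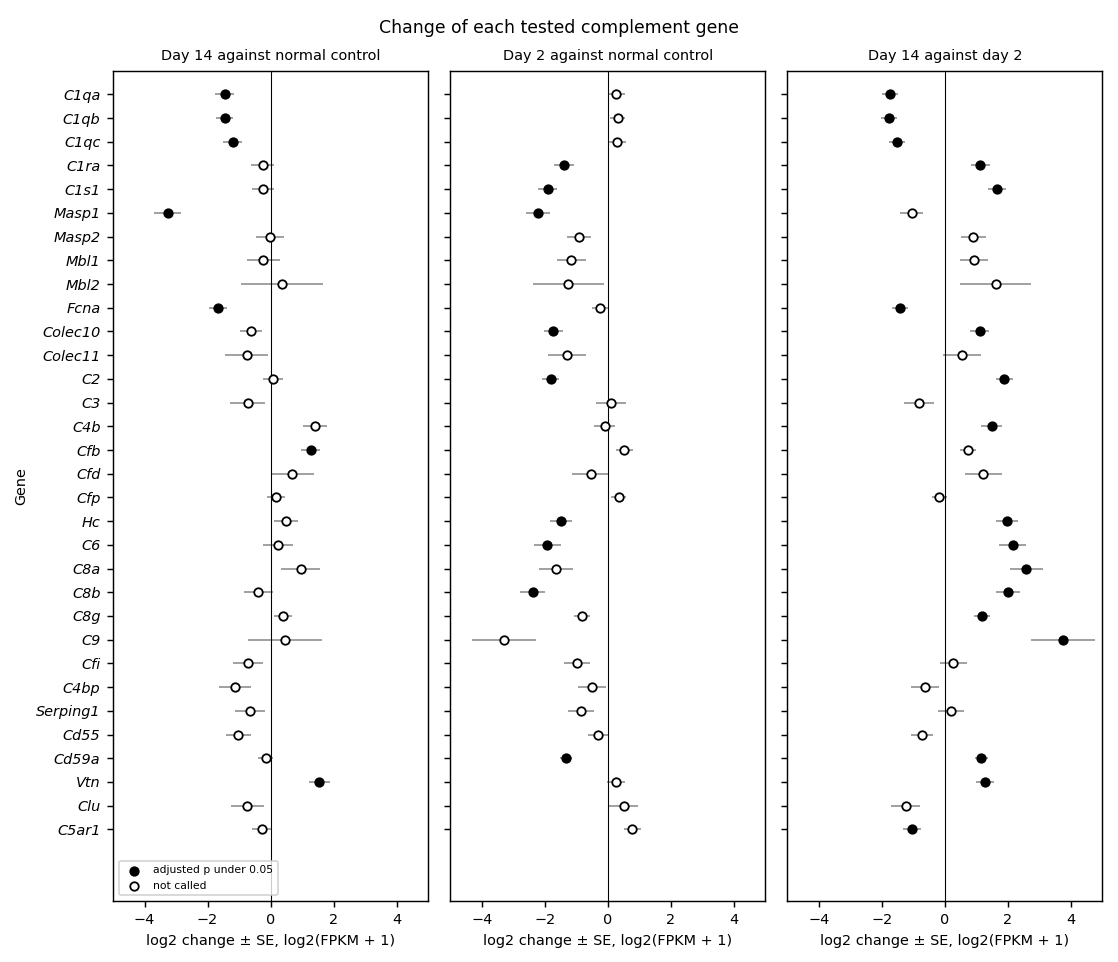
Log2 change of each of the 32 tested members (points, with the standard error as bars) on the log2(FPKM + 1) scale for day 14 against normal control, day 2 against normal control and day 14 against day 2. Filled points have an adjusted p under 0.05, and they fall left of 0 for the C1q chains in both panels with day 14 and for C1s1, C2, C6 and C8b in the day 2 panel.

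The 3 C1q chains, which assemble together into the C1q molecule, were lower at day 14 than in either other group. C1qa was at 9.31 and 13.5 FPKM at day 14, 38.2, 46.4, 30.0 and 46.4 FPKM at day 2 and 33.9 and 31.3 FPKM in the normal controls. The day 14 libraries lay below all others, and the day 2 libraries overlapped the controls. C1qa fell at day 14 against the controls (log2 change -1.46, SE 0.30, adjusted p = 0.0324) and against day 2 (log2 change -1.73, SE 0.26, adjusted p = 0.00743). C1qb was at 7.84 and 9.58 FPKM at day 14, 30.9, 37.1, 24.6 and 37.7 FPKM at day 2 and 28.7 and 22.9 FPKM in the controls. It fell at day 14 against the controls (log2 change -1.46, SE 0.28, adjusted p = 0.0296) and against day 2 (log2 change -1.78, SE 0.24, adjusted p = 0.00589). C1qc, at 7.26 and 11.7 FPKM at day 14, 27.4, 28.1, 22.7 and 36.7 FPKM at day 2 and 24.1 and 21.4 FPKM in the controls, showed the same order of groups. Its fall was called against the controls (log2 change -1.21, SE 0.31, adjusted p = 0.0464), though in only 10 of 16 alternative settings, and against day 2 (log2 change -1.52, SE 0.27, adjusted p = 0.0119). At day 2 the chains were not called against the controls, with log2 changes of 0.27 for C1qa, 0.32 for C1qb and 0.31 for C1qc.

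Within each library the chains kept close proportions. C1qa made up 38.2% to 41.6% of their summed FPKM, C1qb 27.5% to 33.2% and C1qc 25.2% to 33.7%. The sum itself was 24.4 and 34.8 FPKM at day 14, against 96.5, 112, 77.3 and 121 FPKM at day 2 and 86.7 and 75.7 FPKM in the normal controls. The chain genes are neighbours on chromosome 4, between 136880129 and 136898803 on the minus strand in the GENCODE annotation of GRCm38.

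C1r and C1s, the proteases that join C1q in the C1 complex, showed another pattern and were lowest at day 2. C1ra was at 57.0 and 87.6 FPKM at day 14, 25.0, 26.1, 47.9 and 32.6 FPKM at day 2 and 83.4 and 86.4 FPKM in the normal controls. It fell at day 2 against the controls (log2 change -1.39, SE 0.31, adjusted p = 0.0198) and was higher at day 14 than at day 2 (log2 change 1.13, SE 0.31, adjusted p = 0.0450). The call between day 14 and day 2 held in only 7 of 16 alternative settings. C1s1 was at 259 and 199 FPKM at day 14, 70.0, 49.0, 97.1 and 77.4 FPKM at day 2 and 263 and 279 FPKM in the controls. All 4 day 2 libraries of both genes lay below every other library. C1s1 fell at day 2 against the controls (log2 change -1.91, SE 0.30, adjusted p = 0.00642) and was higher at day 14 than at day 2 (log2 change 1.66, SE 0.30, adjusted p = 0.0128). At day 14 neither was called against the controls, with log2 changes of -0.26 for C1ra and -0.25 for C1s1. C1rb and C1s2 are near-identical copies, so the split of reads between copies is uncertain. Counting C1ra and C1rb together gave 61.2 and 91.7 FPKM at day 14, 25.9, 27.5, 49.2 and 33.9 FPKM at day 2, and 85.9 and 89.0 FPKM in the controls. The antisense gene Gm16567, which overlaps C1s1, was at 6.00, 11.7, 2.03 and 11.2 FPKM at day 2 and 0 in all other libraries, and whether the counting used strand is not given in the sources used here.

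**Figure D3:**
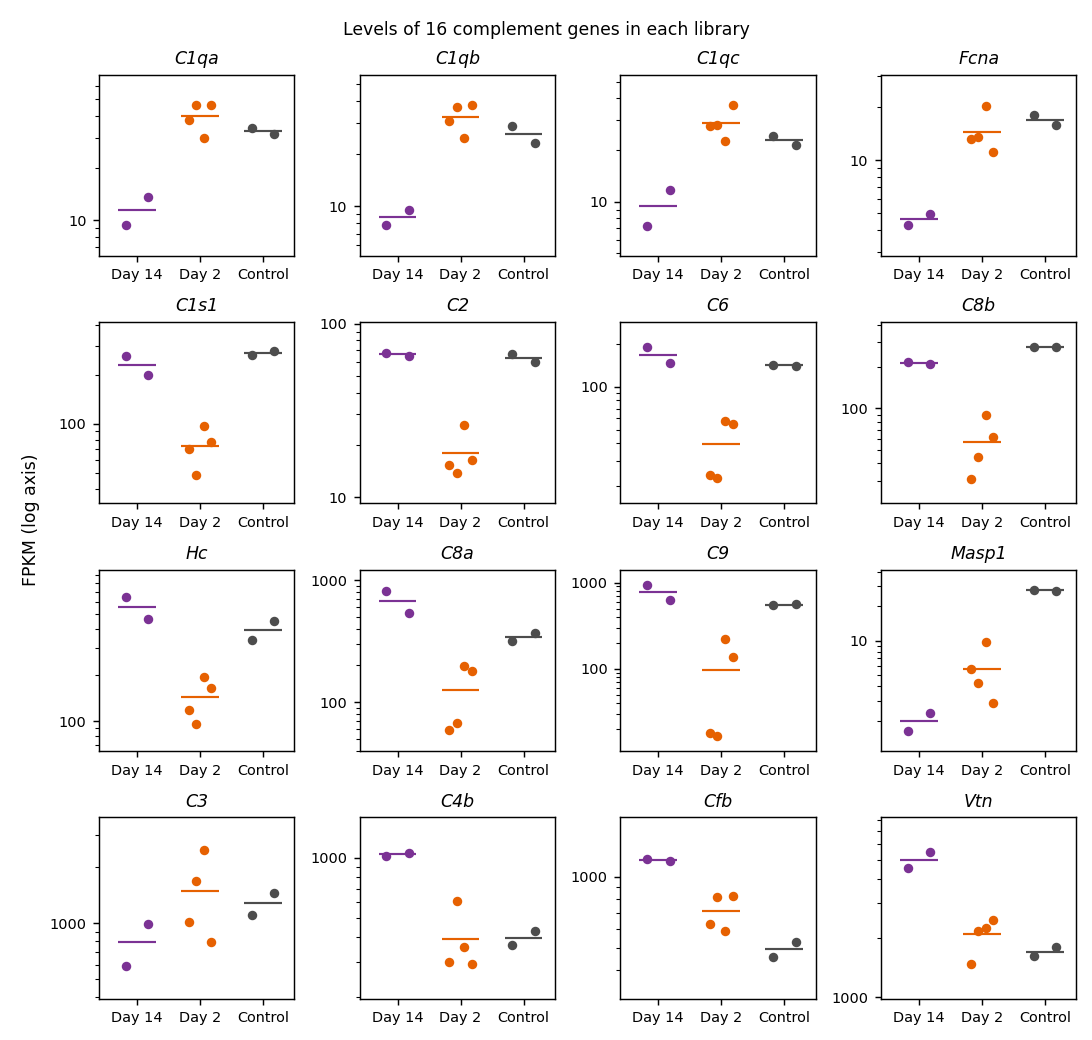
FPKM (log axis) of 16 complement genes in each library (points) with the group mean (line) for day 14, day 2 and normal control. The C1q chains and Fcna are lowest at day 14, C1s1, C2, C6, C8b and Hc are lowest at day 2, and Masp1 is highest in the normal controls at 27.7 and 27.3 FPKM.

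In the lectin pathway, Masp1 had the largest fall of any member against the normal controls at day 14. Masp1 encodes the protease that activates MASP-2 and was at 1.63 and 2.34 FPKM at day 14, 5.71, 4.23, 9.77 and 2.84 FPKM at day 2 and 27.7 and 27.3 FPKM in the normal controls. Every day 14 library lay below every day 2 library, and every day 2 library below both controls. It fell at day 14 (log2 change -3.27, SE 0.43, adjusted p = 0.0161) and at day 2 (log2 change -2.21, SE 0.38, adjusted p = 0.00857) against the controls, and day 14 against day 2 was not called (log2 change -1.06, SE 0.38, adjusted p = 0.0885). Rtp4, on the opposite strand within the Masp1 locus, was at 11.6 and 9.38 FPKM at day 14, 3.40 to 7.25 FPKM at day 2 and 8.30 and 6.25 FPKM in the controls.

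Fcna, the ficolin that mouse macrophages make, followed the C1q chains. It was at 4.28 and 4.96 FPKM at day 14, 13.1, 13.5, 20.4 and 11.1 FPKM at day 2 and 18.1 and 15.8 FPKM in the controls. Both day 14 libraries were below all others, while the day 2 libraries overlapped the controls. Fcna fell at day 14 against the controls (log2 change -1.67, SE 0.30, adjusted p = 0.0263) and against day 2 (log2 change -1.43, SE 0.26, adjusted p = 0.0126). Colec10, a collectin known from liver, was low throughout, at 2.095 and 2.83 FPKM at day 14, 0.469, 0.215, 1.52 and 0.456 FPKM at day 2 and 4.34 and 4.22 FPKM in the controls. Its groups did not overlap and were ordered day 2, day 14, control from low to high. It fell at day 2 against the controls (log2 change -1.72, SE 0.30, adjusted p = 0.00915). It was higher at day 14 than at day 2 (log2 change 1.11, SE 0.30, adjusted p = 0.0430), a call that held in 4 of the 15 alternative settings in which it was tested.

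The mannose-binding lectins and Masp2 were not called in any comparison. Mbl2, a plasma lectin made by hepatocytes and the most abundant lectin pathway member, was at 239 and 397 FPKM at day 14, 20.05, 42.2, 452 and 254 FPKM at day 2 and 238 and 241 FPKM in the controls. Day 2 replicates 1 and 2 were far below both controls, and replicates 3 and 4 above them. Mbl2 had the widest errors of the members (log2 change -1.25, SE 1.12, adjusted p = 0.441 for day 2 against the controls). Mbl1 ranged over 161 to 240.1 FPKM at day 14, 61.1 to 163 FPKM at day 2 and 224 to 239.6 FPKM in the controls. Masp2, the protease that cleaves C4 and C2, ranged over 205 to 230.3 FPKM at day 14, 73.3 to 202 FPKM at day 2 and 205 to 235 FPKM in the controls, and its locus overlaps Tardbp on the opposite strand. Colec11 ranged over 5.98 to 11.4 FPKM at day 14, 1.75 to 13.0 FPKM at day 2 and 13.3 to 16.4 FPKM in the controls. Its log2 change was -0.76 at day 14 and -1.30 at day 2 against the controls, neither called.

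C2, C4 and factor B are the parts of the convertases that cleave C3, and they did not move together. C2 was at 67.9 and 65.4 FPKM at day 14, 15.2, 13.8, 26.2 and 16.5 FPKM at day 2 and 66.5 and 60.5 FPKM in the normal controls. The day 2 libraries were all below the others, and day 14 overlapped the controls. C2 fell at day 2 against the controls (log2 change -1.81, SE 0.27, adjusted p = 0.00570) and was higher at day 14 than at day 2 (log2 change 1.88, SE 0.27, adjusted p = 0.00690). Cfb lies beside C2 on chromosome 17 and is its counterpart in the alternative pathway. It was at 1188 and 1168 FPKM at day 14, 630.2, 816, 588 and 829.8 FPKM at day 2 and 455 and 527 FPKM in the controls. The groups did not overlap and were ordered control, day 2, day 14 from low to high. Cfb was higher at day 14 than in the controls (log2 change 1.26, SE 0.30, adjusted p = 0.0390), a call that held in 7 of 16 alternative settings. Day 2 against the controls was not called (log2 change 0.53, SE 0.26, adjusted p = 0.169), nor was day 14 against day 2 (log2 change 0.73, SE 0.26, adjusted p = 0.0835). The read-through gene Gm20547, which spans both loci, had at most 0.194 FPKM.

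C4b, which encodes C4, was at 1027 and 1065 FPKM at day 14, 300.1, 607, 359 and 294 FPKM at day 2 and 367 and 427 FPKM in the normal controls. Both day 14 libraries were above all others, and day 2 overlapped the controls. C4b was higher at day 14 than at day 2 (log2 change 1.49, SE 0.33, adjusted p = 0.0232), in 10 of 16 alternative settings, and missed the threshold against the controls (log2 change 1.40, SE 0.38, adjusted p = 0.0564). Its near-identical copy C4a, which encodes the sex-limited protein, was at 1900.4 and 622 FPKM at day 14, 104, 149, 221 and 136 FPKM at day 2 and 33.8 and 59.5 FPKM in the controls. C4a was higher at day 14 than in the controls (log2 change 4.57, SE 0.57, adjusted p = 0.0149) and higher at day 2 than in the controls (log2 change 1.69, SE 0.49, adjusted p = 0.0434). How reads were shared between the copies is not given, and their sum was 2927 and 1687 FPKM at day 14, against 404, 756, 579.8 and 430.3 FPKM at day 2 and 401 and 487 FPKM in the controls.

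C3, the component on which all routes meet, was at 589 and 991 FPKM at day 14, 1017, 1684, 2476 and 794 FPKM at day 2 and 1106 and 1464 FPKM in the normal controls. Its day 2 libraries ran from below to above both controls, and both day 14 libraries lay below them. C3 was not called at day 14 (log2 change -0.74, SE 0.55, adjusted p = 0.414) or at day 2 (log2 change 0.09, SE 0.48, adjusted p = 0.909) against the controls, or between the operated groups (log2 change -0.83, SE 0.48, adjusted p = 0.260). Properdin (Cfp), which stabilises the alternative convertase, ranged over 6.83 to 10.2 FPKM at day 14, 7.97 to 11.3 FPKM at day 2 and 6.13 to 8.68 FPKM in the controls. It was the macrophage-made member with the smallest differences at day 14, at a log2 change of 0.17 against the controls and -0.17 against day 2, neither called. Cfd, the protease factor D that fat cells secrete, was at 0.254 and 5.03 FPKM at day 14, 0.0758 to 0.508 FPKM at day 2 and 1.55 and 0.145 FPKM in the controls, with no call. The 6 fat cell markers summed to 9.80 and 12.7 FPKM at day 14, 213, 250.5, 15.4 and 70.6 FPKM at day 2 and 8.72 and 9.65 FPKM in the controls. Of the 6, 4 were at 0 in every day 14 and control library, and 4, 2, 4 and 3 in the day 2 libraries. Of the 2 that were tested, the lipid carrier Fabp4 rose at day 2 against the controls (log2 change 2.30, SE 0.65, adjusted p = 0.0409). The other, Cidec, was at 142, 154, 1.64 and 21.0 FPKM at day 2. Its change against the controls was not called (log2 change 4.58, SE 1.47, adjusted p = 0.0586). Adipoq, Plin1, Lep and Retn, the 4 not tested, stayed at or below 0.168 FPKM in every library. The part of fat cells in the Cfd values was not tested.

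The terminal components, which form the membrane attack pore, included the 5 largest differences between the operated groups (C9, C8a, C6, C8b and Hc). All 6 were called higher at day 14 than at day 2, where 9.09% of all genes tested were. In each of the 6 both day 14 libraries lay above all 4 day 2 libraries, beside 21.2% of all genes tested. C9, whose copies line the pore, was at 935 and 627 FPKM at day 14, 18.1, 16.8, 221 and 137 FPKM at day 2 and 543 and 567 FPKM in the normal controls. Day 2 replicates 1 and 2 were far below replicates 3 and 4, and all 4 were below both controls. C9 was higher at day 14 than at day 2 (log2 change 3.75, SE 1.02, adjusted p = 0.0425), in 8 of 16 alternative settings. Its day 2 value missed the threshold against the controls (log2 change -3.29, SE 1.02, adjusted p = 0.0530).

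The C8 chains are encoded by 3 genes. C8a was at 814 and 539 FPKM at day 14, 59.4, 67.1, 198 and 179.7 FPKM at day 2 and 316 and 369.7 FPKM in the controls. It was higher at day 14 than at day 2 (log2 change 2.59, SE 0.53, adjusted p = 0.0183), and at day 2 it missed the threshold against the controls (log2 change -1.64, SE 0.53, adjusted p = 0.0607). C8b, its neighbour on chromosome 4, was at 215 and 210.4 FPKM at day 14, 30.8, 44.8, 89.6 and 61.6 FPKM at day 2 and 278 and 280.1 FPKM in the controls. It fell at day 2 against the controls (log2 change -2.39, SE 0.39, adjusted p = 0.00712) and was higher at day 14 than at day 2 (log2 change 2.00, SE 0.39, adjusted p = 0.0156). C8g, at 466 and 424 FPKM at day 14, 149.6, 202, 238 and 198 FPKM at day 2 and 358 and 326 FPKM in the controls, had the smallest standard errors of the 3. It was higher at day 14 than at day 2 (log2 change 1.19, SE 0.25, adjusted p = 0.0201) and missed the threshold at day 2 against the controls (log2 change -0.81, SE 0.25, adjusted p = 0.0530). C8g overlaps Fbxw5 on the opposite strand, which was at 16.0 to 35.1 FPKM over the 8 libraries.

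Hc, the mouse gene for C5, was at 647 and 461 FPKM at day 14, 119, 96.0, 194 and 164 FPKM at day 2 and 337 and 449 FPKM in the normal controls. All day 2 libraries lay below the others. Hc fell at day 2 against the controls (log2 change -1.49, SE 0.34, adjusted p = 0.0205), which removal of a length and GC trend ended, and was higher at day 14 than at day 2 (log2 change 1.98, SE 0.34, adjusted p = 0.0111). C6, the component that binds C5b, was at 188 and 145 FPKM at day 14, 24.0, 22.8, 57.3 and 55.0 FPKM at day 2 and 141 and 140.5 FPKM in the controls. It fell at day 2 against the controls (log2 change -1.92, SE 0.42, adjusted p = 0.0183) and was higher at day 14 than at day 2 (log2 change 2.16, SE 0.42, adjusted p = 0.0162). No terminal component was called at day 14 against the controls by limma, and none of the 6 had an unadjusted p under 0.05, with log2 changes between -0.39 for C8b and 0.95 for C8a.

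The make-up of the terminal set also differed between libraries. C9 made up 28.6% and 26.1% of the summed FPKM of the 6 terminal genes at day 14, 4.53%, 3.73%, 22.2% and 17.2% at day 2, and 27.5% and 26.6% in the normal controls. C8g made up 14.3% and 17.6% at day 14, 37.4%, 44.9%, 23.9% and 24.9% at day 2, and 18.1% and 15.3% in the controls. The lowest C9 shares and the highest C8g shares were thus both in day 2 replicates 1 and 2. These shares are descriptions, with no test.

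Among the regulators, Vtn was the most abundant member in every group. Vitronectin is an adhesion protein that also blocks insertion of the terminal complex, and it was at 4558 and 5462 FPKM at day 14, 1477, 2179, 2254 and 2462 FPKM at day 2 and 1621 and 1800.3 FPKM in the normal controls. The day 14 mean was 5009.8 ± 639 FPKM (SD, n = 2), against 2093 ± 428 FPKM at day 2 (SD, n = 4) and 1711 ± 127 FPKM in the controls (SD, n = 2). Both day 14 libraries lay above all others, and day 2 overlapped the controls. Vtn was higher at day 14 than in the controls (log2 change 1.55, SE 0.34, adjusted p = 0.0346), in 9 of 16 alternative settings, and higher than at day 2 (log2 change 1.28, SE 0.29, adjusted p = 0.0260), in 10 of 16.

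Cd59a encodes the membrane protein that stops C9 from polymerising on the host's cells. It was at 32.4 and 33.5 FPKM at day 14, 14.7, 15.9, 11.9 and 14.5 FPKM at day 2 and 34.0 and 40.2 FPKM in the normal controls. The day 2 libraries were all below the others. Cd59a fell at day 2 against the controls (log2 change -1.32, SE 0.20, adjusted p = 0.00595) and was higher at day 14 than at day 2 (log2 change 1.16, SE 0.20, adjusted p = 0.0116), the second call in 15 of 16 alternative settings. Cd59b is a related copy, and how reads were split between the 2 is not given. Cd55, the membrane decay-accelerating factor, was at 1.70 and 3.01 FPKM at day 14, 2.60 to 7.39 FPKM at day 2 and 5.67 and 5.68 FPKM in the controls, with no call.

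The other soluble inhibitors were not called in any comparison. C1 inhibitor (Serping1) ranged over 225 to 394 FPKM at day 14, 179.6 to 454 FPKM at day 2 and 435 to 504 FPKM in the normal controls. Factor I (Cfi), which cleaves C3b and C4b, ranged over 172 to 262 FPKM at day 14, 112 to 307 FPKM at day 2 and 327 to 373 FPKM in the controls. The C4b-binding protein (C4bp) ranged over 94.1 to 174 FPKM at day 14, 131 to 318 FPKM at day 2 and 250.1 to 320.0 FPKM in the controls. In these 3 genes both day 14 libraries lay below both controls, as in 35.7% of all genes tested. Their log2 changes were -0.65, -0.71 and -1.14 in that order. Clu, which binds the forming terminal complex, ranged over 373 to 1031 FPKM at day 14, 1089 to 2256 FPKM at day 2 and 989.5 to 1086 FPKM in the controls. All 4 day 2 libraries of Clu were above the controls, at a log2 change of 0.50 that was not called.

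The receptors were near the floor of the data. C5ar1, the C5a receptor of myeloid cells, was at 0.0403 and 0.243 FPKM at day 14, 1.70, 1.85, 0.636 and 1.43 FPKM at day 2 and 0.218 and 0.545 FPKM in the normal controls. All day 2 libraries were above the rest. It was lower at day 14 than at day 2 (log2 change -1.05, SE 0.28, adjusted p = 0.0393), in 5 of the 15 alternative settings in which it was tested, and day 2 against the controls was not called (log2 change 0.78, SE 0.28, adjusted p = 0.0788). Because C5ar1 passed the filter through its day 2 libraries alone, the filter favoured this difference. The 9 neutrophil markers examined summed to 16.1 and 74.6 FPKM at day 14, 142, 326, 89.0 and 32.3 FPKM at day 2 and 4.23 and 7.84 FPKM in the controls. At day 2 against the controls 3 of the 5 tested were called higher, where 9.72% of all genes tested were. At day 14 all 5 lay above both controls in both libraries, beside 35.3% of all genes tested. In the same comparison C5ar1 had a log2 change of -0.27. Between day 14 and day 2 none of the 5 was called by limma, and 1 was lower at an unadjusted p under 0.05. The 7 monocyte markers summed to 26.4 and 27.5 FPKM at day 14, 95.6, 119, 36.9 and 52.6 FPKM at day 2 and 45.2 and 34.7 FPKM in the controls. Of the 5 tested, 3 were called higher at day 2 against the controls, where 9.72% of all genes tested were. All 5 had negative changes at day 14 against day 2, with 1 called, Ly6c2 (log2 change -1.06, SE 0.30, adjusted p = 0.0490). In that comparison 7.03% of all genes tested were called lower. Ly6c2, which was also among the 3, passed the filter only through its day 2 libraries, so the filter favoured both of its calls. The part of neutrophils and monocytes in the C5ar1 difference was not tested. C3ar1, the C3a receptor, was at 0.0868 and 0.163 FPKM at day 14, 0.224 to 0.718 FPKM at day 2 and 0.479 and 0.487 FPKM in the controls, and was not tested.

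Grouped by source cell, the hepatocyte-made members were low at day 2 and the macrophage-made members low at day 14, by their median log2 change. At day 14 against the controls 0 of the 17 hepatocyte-made members were called lower by limma, none of them at an unadjusted p under 0.05 either, and 2 were higher (Vtn and Cfb), where 4.58% of all genes tested were lower and 5.21% higher. The macrophage-made members had 4 of 6 tested lower in that comparison and 0 higher, with no member higher at an unadjusted p under 0.05. These 4 were Fcna and the chains of the C1q molecule. The other tested members of the class, Cfp and C5ar1, had log2 changes of 0.17 and -0.27. The median log2 changes were 0.07 for the hepatocyte-made and -1.33 for the macrophage-made members, beside -0.00 for all genes tested. At day 2 against the controls 5 of the 17 hepatocyte-made members were lower, where 11.5% of all genes tested were, and 14 had negative changes, with a median of -1.16. Of the 6 macrophage-made members tested none was called at day 2 by limma, and 1, C5ar1, was higher at an unadjusted p under 0.05. The filter favoured this difference, since C5ar1 passed it only through its day 2 libraries. The median of the 6 was 0.31, beside 0.05 for all genes tested. That median turned to -0.25 with a length and GC trend removed. Between day 14 and day 2, 10 of 17 hepatocyte-made members were higher and 0 lower, with 2 negative changes and none at an unadjusted p under 0.05, and a median of 1.28, where 9.09% of all genes tested were higher and 7.03% lower. In the same comparison 5 of 6 macrophage-made members were lower, with a median of -1.48, beside -0.03 for all genes tested. One of these 5 was C5ar1, which passed the filter only through its day 2 libraries, so the filter favoured its difference. The difference between the source classes itself was not tested.

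The same contrast was seen library by library in the medians. The median log2 difference of the hepatocyte-made members from the control mean was -0.00 and 0.07 at day 14, and -1.68, -1.66, -0.52 and -0.73 at day 2. For the macrophage-made members it was -1.56 and -1.06 at day 14, and 0.24, 0.47, 0.13 and 0.55 at day 2. Their summed FPKM was 39.0 and 47.0 at day 14, against 120, 138, 108 and 145 at day 2 and 114 and 98.6 in the controls. All 4 macrophage-made sums at day 2 overlapped or passed the controls, and both at day 14 lay below every other library. The hepatocyte-made sums were 11694 and 12605 FPKM at day 14, 4326, 6259, 8228 and 6281 FPKM at day 2 and 7039 and 8045 FPKM in the controls. Day 2 replicate 3 was thus above both controls by sum. By share of all FPKM, at 1.01%, it lay between the controls at 0.981% and 1.10%. Both day 14 sums were above both controls, but this did not hold by share. Day 14 replicate 1, at 0.901%, lay below both controls, and day 14 replicate 2, at 1.1998%, lay above both. Among the hepatocyte-made members the day 2 libraries did not move as a block: Cfb was above both controls in all 4 day 2 libraries, whereas C2, C8b and C1s1 were below them in all 4.

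**Figure D4:**
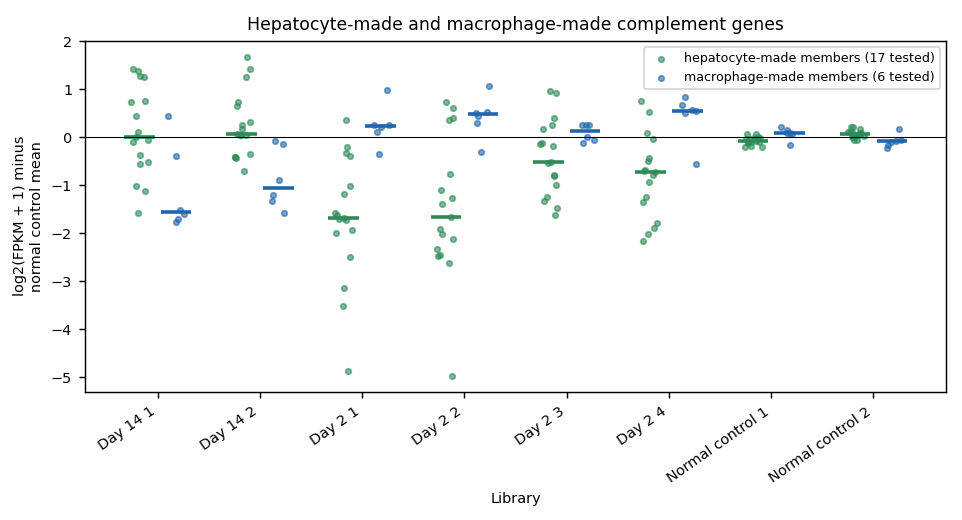
Log2(FPKM + 1) minus the normal control mean for each of the 17 hepatocyte-made and the 6 tested macrophage-made members (points) in each library, with the median as a line. The hepatocyte-made medians are below 0 in all 4 day 2 libraries, lowest at -1.68 in replicate 1, and the macrophage-made medians are below -1 in both day 14 libraries.

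In whole liver, fewer cells of a type and less RNA per cell cannot be told apart, so markers of the source cells are given beside these values. The 9 hepatocyte markers summed to 60483 and 75738 FPKM at day 14, 66768, 99466, 93687 and 69276 FPKM at day 2 and 57082 and 61574 FPKM in the controls. As a share of all FPKM they took 4.66% and 7.21% at day 14, 8.76%, 8.77%, 11.5% and 10.1% at day 2, and 7.96% and 8.42% in the controls, so by share the day 14 libraries were below both controls. None of the 9 was called at day 14 against the controls, with 1 higher and 1 lower at an unadjusted p under 0.05. At day 2, 1 was called higher and 1 lower, where 9.72% of all genes tested were higher and 11.5% lower. The 7 Kupffer cell markers, which mark the resident liver macrophages, summed to 50.1 and 49.3 FPKM at day 14, 75.1, 110.2, 117 and 146 FPKM at day 2 and 93.4 and 78.1 FPKM in the controls. At day 14 against the controls 6 of the 7 were below both controls in both libraries, where 35.7% of all genes tested were. Of the 7, 1 was called lower, Adgre1 (log2 change -1.83, SE 0.38, adjusted p = 0.0327), where 4.58% of all genes tested were. Clec4f, a lectin particular to Kupffer cells, was at 34.8 and 31.1 FPKM at day 14, 20.1, 14.1, 40.1 and 46.7 FPKM at day 2 and 44.9 and 40.3 FPKM in the controls. Marco, a scavenger receptor, went the other way and rose at day 2 (log2 change 3.96, SE 0.36, adjusted p = 0.00162).

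The 7 general macrophage markers summed to 39.0 and 43.8 FPKM at day 14, 114, 127, 56.2 and 89.9 FPKM at day 2 and 73.7 and 51.8 FPKM in the controls. Of these Csf1r was called lower at day 14 against the controls (log2 change -1.09, SE 0.22, adjusted p = 0.0305), where 4.58% of all genes tested were. In that comparison 6 of the 7 had negative changes. None of the 14 Kupffer cell and general macrophage markers was at 0 in any library. The 8 stellate cell markers summed to 106 and 143 FPKM at day 14, 193, 161, 139 and 177 FPKM at day 2 and 129.8 and 117 FPKM in the controls. By share of all FPKM both day 14 libraries, at 0.00819% and 0.0136%, lay below both controls, at 0.0181% and 0.0160%. The day 2 libraries were at 0.0254%, 0.0142%, 0.0170% and 0.0258%. None of the 8 was called against the controls by limma at either time, and none had an unadjusted p under 0.05. The 7 sinusoidal endothelial markers summed to 40.1 and 51.6 FPKM at day 14, 67.4, 69.4, 49.1 and 85.5 FPKM at day 2 and 89.8 and 84.2 FPKM in the controls, with none at 0. At day 14 against the controls 6 of the 7 were below both controls in both libraries, where 35.7% of all genes tested were. Of the 7, 2 were called lower, Lyve1 at a log2 change of -1.98 and Bmp2 at -1.35, where 4.58% of all genes tested were. At day 2 none of the 7 was called by limma, with 1 higher and 2 lower at an unadjusted p under 0.05.

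Of the 14 Kupffer cell and general macrophage markers, those called lower at day 14 against the controls were Adgre1 and Csf1r. Both were also called lower at day 2 against the controls, where the C1q chains were not called. In that comparison Marco and Fcer1g of the 14 were called higher, where 9.72% of all genes tested were higher and 11.5% lower. There 6 of the 7 Kupffer cell markers had negative changes, and 5 of the 7 general macrophage markers had positive ones. Adgre1 had a log2 change of -1.24 at day 2 (SE 0.33, adjusted p = 0.0317) and Csf1r one of -0.77 (SE 0.19, adjusted p = 0.0257). Fcer1g had one of 1.31 (SE 0.39, adjusted p = 0.0477). Adgre1 was near the floor at day 14, at 0.207 and 0.157 FPKM. The part of macrophage or endothelial cell number in the fall of the C1q chains and Fcna was not tested.

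**Figure D5:**
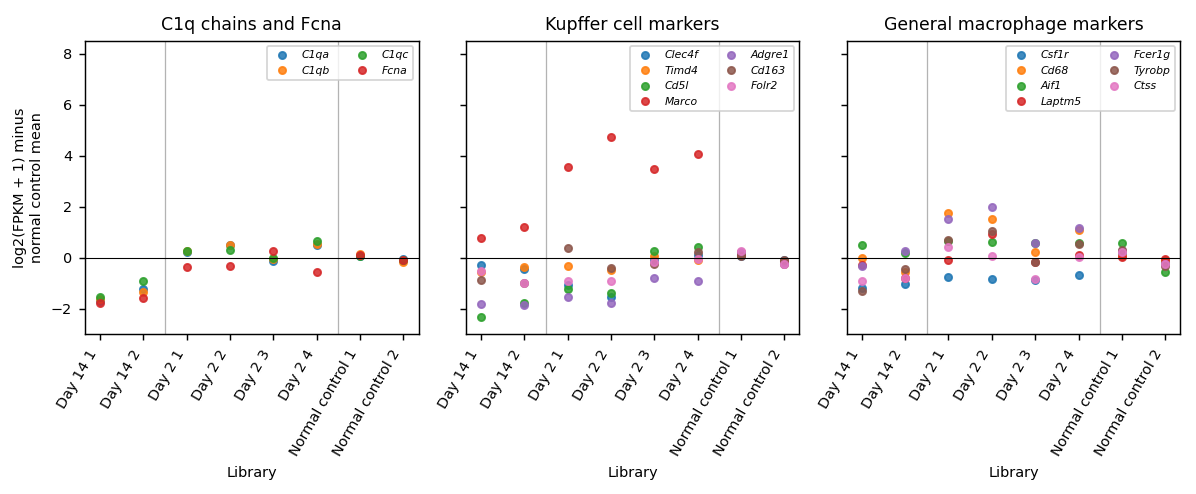
Log2(FPKM + 1) minus the normal control mean of the C1q chains and Fcna (left), 7 Kupffer cell markers (middle) and 7 general macrophage markers (right) in each library. The C1q chains and Fcna are below 0 in both day 14 libraries, as are 6 of the 7 Kupffer cell markers, while Marco is above 0 in all day 2 libraries.

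A further 29 complement genes outside the 33 were looked up, of which 19 were tested. At day 14 against the controls 2 were higher and 1 lower, where 5.21% of all genes tested were higher and 4.58% lower. C1qbp, a mitochondrial protein that binds C1q, was higher (log2 change 1.60, SE 0.31, adjusted p = 0.0296), as was C4a. The lower one was Vsig4, the complement receptor of Kupffer cells, at 2.55 and 2.54 FPKM at day 14, 6.80, 6.71, 7.20 and 8.89 FPKM at day 2 and 13.9 and 8.68 FPKM in the normal controls (log2 change -1.76, SE 0.27, adjusted p = 0.0200). Vsig4 was also lower at day 14 than at day 2 (log2 change -1.24, SE 0.23, adjusted p = 0.0138).

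At day 2 against the controls 6 of these 19 were lower and 2 higher, where 11.5% of all genes tested were lower and 9.72% higher, with a median log2 change of -0.66. Among the lower ones the log2 changes were -1.77 for Cd59b, -1.46 for Cfhr2, -1.12 for Colec12, -0.87 for Susd4 and -0.66 for C1rb. Apcs, which encodes the pentraxin serum amyloid P, an acute phase protein of mice, was at 53.9 and 155 FPKM at day 14, 603, 671, 862 and 327 FPKM at day 2 and 114 and 141 FPKM in the controls. It rose at day 2 (log2 change 2.19, SE 0.49, adjusted p = 0.0197), with C4a the other gene called higher. Day 14 against day 2 had 4 of the 19 higher, among them C4a, C1rb and Cd59b, and 3 lower (Apcs, Cd93 and Vsig4), where 9.09% of all genes tested were higher and 7.03% lower. Cd93 passed the filter only through its day 2 libraries, which favoured its difference.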

How the data were processed

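Whole liver RNA from 8 libraries was sequenced, and the values used are gene-level FPKM as deposited by the authors in 1 table. Tools named by the submitters' processing notes, without their roles, are Cufflinks 2.2.1, DESeq2, HTSeq and HISAT2 2.10, and the notes name both mm9 and GRCm38. The sources used here do not state read counts, depth, annotation, filters or the strand of counting, so no interval from counts could be given and no count test was used. Libraries were grouped by the age label. Genes reaching 1 FPKM in 2 or more libraries (12340 of 47719) were fitted with limma 3.58.1 (R 4.3.3) on log2(FPKM + 1) with 3 group means and a mean-variance trend, on 5 residual and 3.23 prior degrees of freedom, and p-values were adjusted by Benjamini-Hochberg over all genes tested. The fit was tested on simulated data. In all, 16 alternatives were run. All 33 members are named, with values in every library for those called in at least 1 comparison and for the most abundant of each role. Of the further complement genes, 1 is not reported here. Members, gene lists, markers and motifs were chosen with earlier results of these data known. Promoters came from RefSeq on GRCm38.p6 and gene positions from GENCODE. Figures were drawn with matplotlib 3.10.9.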

Additional observations from a re-analysis of the deposited data

Results flagged for a closer look

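Factor D (Cfd) in day 2 replicate 1 stood apart from the other day 2 libraries, at 0.508 FPKM against 0.0758 to 0.0925 FPKM. On the log2(FPKM + 1) scale its gap to the nearest library took 0.954 of the range of the 4 libraries, above the critical value of 0.829. Chance alone gives about 1 such case in 20 groups. All of these values are near the floor of the data.

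The change from the normal controls differed between day 14 and day 2 in 18 members, tested in limma as day 14 minus day 2 on the log2(FPKM + 1) scale. The controls cancel, so this is the day 14 against day 2 comparison given above and not a further test. In it 13 of 32 members were called higher and 5 lower, where 9.09% of all genes tested were higher and 7.03% lower. The terminal components differed by 3.75 for C9, 2.59 for C8a, 2.16 for C6, 2.00 for C8b, 1.98 for Hc and 1.19 for C8g. Of these C6 is classed as of other or mixed source. Hepatocyte-made members outside the terminal set differed by 1.88 for C2, 1.66 for C1s1, 1.49 for C4b, 1.28 for Vtn and 1.13 for C1ra. Cd59a differed by 1.16 and Colec10 by 1.11. The macrophage-made members differed in the other direction, by -1.78 for C1qb, -1.73 for C1qa, -1.52 for C1qc, -1.43 for Fcna and -1.05 for C5ar1. C5ar1 passed the filter on low values only through its day 2 libraries, which favoured its difference.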

How the results depend on the processing

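The fits used a pseudocount of 0.1, no filter, a filter at 5 FPKM, median-ratio scaling, quantile scaling, the compared groups alone, no mean-variance trend, removal of a length and GC trend, and each library left out. No called value changed sign in any of them. No paired analysis was possible because the groups share fewer than 2 replicate numbers in their titles. A group left with 1 library was assumed to vary like the others. Depth is unknown, and C3ar1, C5ar1, Cfd and Colec10 lie near the floor.

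At day 14 against the controls, the members called higher, 2 in the reported fit, numbered 0 with no filter, 0 with the length and GC trend removed (3 at an unadjusted p under 0.05 in both) and 1 with quantile scaling, and 0 to 3 with a library left out. Those called lower numbered 0 to 5 with a library left out. The hepatocyte-made median of 0.07 was -0.012 with quantile scaling and -0.0012 to 0.14 with a library left out. The macrophage-made median of -1.33 was -1.84 with the length and GC trend removed and -1.56 to -1.06 with a library left out. At day 2 against the controls, 0 to 16 members were called lower and 0 to 1 higher with a library left out, and the hepatocyte-made median ran over -1.37 to -0.77. The macrophage-made median of 0.31 turned to -0.25 with the length and GC trend removed, and ran over 0.19 to 0.43 with a library left out. Between day 14 and day 2, 8 members were called higher with the compared groups alone, 0 to 14 were higher and 0 to 5 lower with a library left out. The hepatocyte-made median of 1.28 was 1.14 with quantile scaling, 1.39 with the length and GC trend removed and 1.07 to 1.43 with a library left out. The causes were not tested.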
